A study of Mus musculus with 2 samples.

Results

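Cytochrome c oxidase, or complex IV of the mitochondrial respiratory chain, is built partly from subunits that exist as alternative isoforms, and the 9 genes described here are Cox6a1, Cox6a2, Cox4i1, Cox4i2, Cox7a1, Cox7a2, Cox7a2l, Cox8a and Cox6b1. They were taken by name, 9 of the 32285 genes in the table, and all 9 had at least 20 unique molecular identifiers (UMIs, 1 for each captured RNA molecule) over both libraries. The set was chosen by the measured ratio of Cox6a2 between the libraries, with its relatives added by name, so the values below are a description and none carries a test.

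Myeloid-derived suppressor cells (MDSCs), immature myeloid cells that restrain T cells, were grown from the marrow of C57BL/6 females 10 weeks old and profiled by single-cell RNA sequencing. Both cultures ran 4 days under 50 ng/mL each of GM-CSF and IL-6. The DAB culture also received dabrafenib, a BRAF kinase inhibitor used against melanoma, at 1.5 µM, and the DMSO culture its solvent. There was 1 library per condition, and the sources used here do not say how many mice each came from, so no value has a replicate error, and the treatment cannot be told apart from any other difference between these cultures or libraries.

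Complex IV passes electrons from cytochrome c to oxygen at the end of the respiratory chain. Its catalytic core is encoded by mitochondrial DNA, and the surrounding nuclear-encoded subunits tune its activity and assembly. For several of these subunits a common isoform is made in most tissues, while a second gene supplies an isoform known from heart and skeletal muscle (Cox6a2, Cox7a1) or from lung (Cox4i2).

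After filtering, 9032 DMSO cells with 93024998 UMIs and 10476 DAB cells with 141576822 UMIs remained, with a median of 7577 and 9487 UMIs per cell. Itgam, which encodes the MDSC surface marker CD11b, had 39905 and 77621 UMIs in the DMSO and DAB library, and the granulocytic and monocytic markers Ly6g (13522 and 12811) and Ly6c2 (30876 and 83214) were abundant in both. The libraries shared 152 barcode sequences, 127 of them among the kept cells. Levels are given as CPM, the UMIs of a gene per 1000000 UMIs of the same cells. Since a UMI stands for 1 molecule read from its 5′ end, gene length does not enter the counts. Ratios are log2(DAB/DMSO) with a 95% interval, and shares carry exact binomial intervals. All intervals cover counting error only.

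The isoforms of subunit 6a are encoded far apart in the genome and differ enough in sequence to be counted separately. Cox6a2 (ENSMUSG00000030785) lies at chr7:128205435-128206387 on the minus strand of GRCm38, inside the span of the integrin gene Itgad on the opposite strand, and Cox6a1 lies at chr5:115345642-115348981 on the minus strand. Their coding sequences of 291 and 336 bases were identical at 64.8% of 290 aligned bases, and the longest run that their transcripts shared was 12 bases. The study's primer pair for Cox6a2 is shown because it marks a stretch that tells the isoforms apart, with capitals at each base that differs from the aligned base of Cox6a1.
Cox6a2 forward primer (chr7:128205999-128206018, minus strand): tGacctTTGtGCtggcTctT
Cox6a2 reverse primer (chr7:128205806-128205911, across an exon junction): CgaagggcttggtTcGgat
Cox6a2 stretch between the primers, primers included: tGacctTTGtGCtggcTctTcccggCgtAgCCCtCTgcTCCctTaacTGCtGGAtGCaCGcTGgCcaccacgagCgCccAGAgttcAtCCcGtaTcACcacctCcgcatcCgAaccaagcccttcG
Cox6a1 aligned stretch (chr5:115345920-115348689, minus strand, capitals where it differs from Cox6a2): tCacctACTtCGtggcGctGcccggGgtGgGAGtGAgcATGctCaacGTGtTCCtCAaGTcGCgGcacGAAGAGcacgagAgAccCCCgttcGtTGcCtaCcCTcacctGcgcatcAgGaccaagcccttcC
The Cox6a2 stretch of 126 bases differed from Cox6a1 at 48 bases, and the alignment held a gap of 6 bases. Among the annotated transcripts, those of Cox6a2 were the ones that contained either primer. Of the 50-base windows of Cox6a2 transcripts none occurred in another gene, while 9.16% of those of Cox6a1 also occurred in AC148174.2, which is not among the counted genes.

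Cox6a2 was far higher in the DAB library. It had 719 UMIs in DMSO and 15446 in DAB, or 7.73 (7.17 to 8.32) and 109 (107 to 111) CPM. In DMSO its level stood above 61.0% of all detected genes, and in DAB above 94.5%. The log2 ratio was 3.82 (3.71 to 3.93), a 14.1-fold difference and rank 57 among the 16327 genes with at least 20 UMIs. Both tissue isoforms of the other pairs had the opposite direction. Cox4i2, the isoform of subunit 4 known from lung and low oxygen, had 16.5 and 9.74 CPM, a log2 ratio of -0.76 (-0.87 to -0.66). Cox7a1, the muscle isoform of subunit 7a, had 11.5 and 7.14 CPM, a log2 ratio of -0.68 (-0.81 to -0.56).

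A gene was called past the fold where its log2 ratio was at least 0.5 in size and its interval left out 0. By that rule 1 of the 9 genes was higher in DAB (Cox6a2) and 2 were lower (Cox4i2 and Cox7a1), beside 13.9% of all tested genes higher and 16.9% lower. The remaining 6 genes were within the limits. Nothing is read from these counts, since the same contrast had been used to choose the genes.

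The common isoforms were abundant and near even between the libraries. Cox6a1 had 417 and 489 CPM in DMSO and DAB, and its log2 ratio was 0.23 (0.21 to 0.25). Cox4i1, the common isoform of subunit 4, had 950 and 942 CPM, and Cox7a2, that of subunit 7a, had 410 and 423. Their log2 ratios were -0.01 and 0.04. Cox8a, the common form of the small subunit 8, was the most abundant of the 9 genes with 1404 and 1173 CPM, a log2 ratio of -0.26. Cox6b1, a subunit on the intermembrane side of the complex, had 498 and 453, a log2 ratio of -0.14. Over these 5 common isoforms the median log2 ratio was -0.01, beside -0.02 over all genes tested, and their summed level was 3679 and 3481 CPM. Cox7a2l, a relative of subunit 7a known for joining complex IV to complex III in supercomplexes, had 311 and 246 CPM, a log2 ratio of -0.34. In the same annotation Cox4i1 lies at chr8:120668222-120674207, Cox4i2 at chr2:152754173-152765037 and Cox7a1 at chr7:30184144-30186078, each on the plus strand. Cox7a2 lies at chr9:79755361-79759878, Cox7a2l at chr17:83501918-83517330, Cox8a at chr19:7215153-7217616 and Cox6b1 at chr7:30616861-30626151, each on the minus strand. For Cox7a2l, 13.8% of the 50-base windows also occurred in the gene Gm6969, Cox4i1 overlaps the annotation of Emc8 and Gm20388, and Cox6a2 lies within Itgad, so the counts of these genes and of Cox6a1 may hold reads of another gene.

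**Figure D1:**
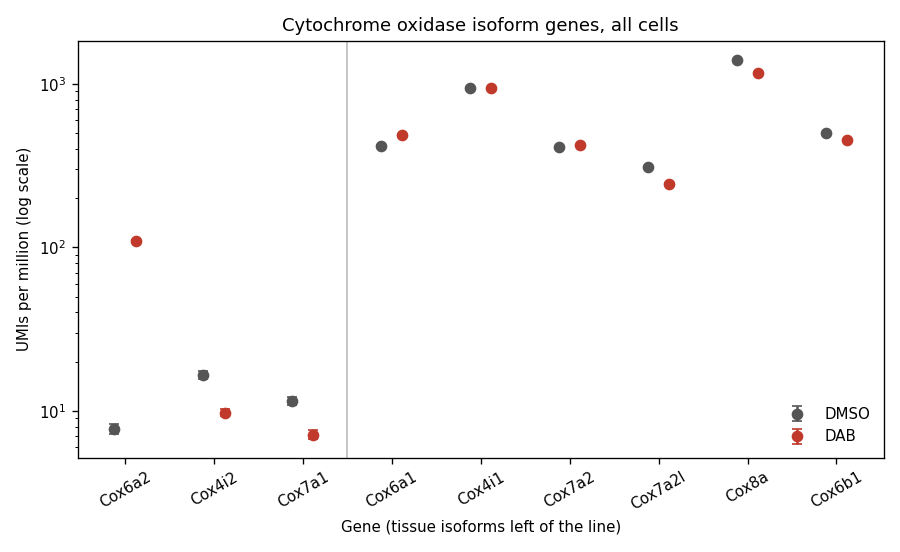
Level of each isoform gene over all cells, in CPM on a log axis, for the DMSO (grey) and DAB (red) library, 1 library each, with the exact Poisson 95% interval (hidden by the points where narrow). Cox6a2 moves from 7.73 to 109 while Cox4i2 and Cox7a1 sit lower in DAB, and the 6 genes on the right lie between 246 and 1404 in both libraries.

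**Figure D2:**
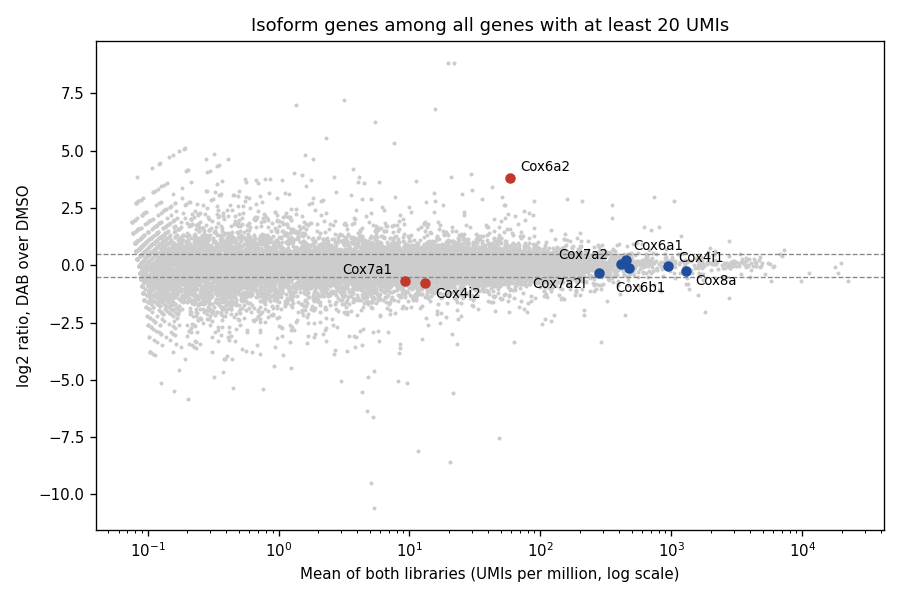
Log2 ratio of DAB over DMSO against the mean level of both libraries for the 16327 genes with at least 20 UMIs (grey), with tissue isoforms in red and the other members in blue; dashed lines mark log2 ratios of 0.5 and -0.5. Cox6a2 at 3.82 lies high in the plot, at rank 57 by log2 ratio. Cox4i2 and Cox7a1 lie just below the lower line, and the other 6 genes lie between the lines.

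The share of a subunit's UMIs that came from the tissue isoform put each pair on its own scale. Cox6a2 made up 1.82% (1.69 to 1.95) of the UMIs of Cox6a1 and Cox6a2 in DMSO and 18.2% (18.0 to 18.5) in DAB. Cox4i2 made up 1.71% (1.63 to 1.80) of its pair in DMSO and 1.02% (0.970 to 1.08) in DAB. Cox7a1 made up 2.72% (2.56 to 2.89) of its pair in DMSO and 1.66% (1.56 to 1.77) in DAB. The 3 tissue isoforms thus had low shares of 1.71% to 2.72% in DMSO, and in DAB the share of Cox6a2 was higher while the other two were lower. In both libraries the common isoform supplied most of each pair. The other pairs were as distinct in sequence as the first, with 69.6% identity over the aligned coding bases of Cox4i1 and Cox4i2 and 64.2% for Cox7a1 and Cox7a2, and no shared transcript run longer than 14 bases.

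Cells were clustered without the complex IV genes, and 14 of the 26 clusters could be named from marker lists, giving 11 classes. Both libraries held at least 200 cells in 6 of them. Cox6a2 was higher past the fold in 6 of these 6 classes. The share of all tested genes that were higher past the fold was 14.9% in mature PMN-like, 16.2% in mature monocyte-like, 11.8% in chemokine-high granulocyte-like, 23.2% in intermediate granulocyte-like, 10.5% in immature monocyte-like and 17.1% in macrophage-like cells. The share that was lower was 9.6%, 19.4%, 10.7%, 15.5%, 17.5% and 12.4% in the same order. In mature monocyte-like cells, which carry MHC class II genes, it had 222 and 5928 UMIs in 594 DMSO and 797 DAB cells, or 18.1 and 238 CPM, a log2 ratio of 3.72 (3.53 to 3.92). In immature monocyte-like cells, led by F13a1, Arg1 and Saa3, it had 9.69 and 135 CPM in 707 and 205 cells, a log2 ratio of 3.80 (3.52 to 4.08). These monocyte-like classes held 30.9% and 18.1% of all Cox6a2 UMIs of the DMSO library, beside 13.2% and 14.4% of its UMIs of all genes. In the DAB library they held 38.4% and 3.74%, beside 17.6% and 3.03% of the UMIs of all genes. Cells in unnamed clusters held a further 42.6% in DMSO and 49.5% in DAB, beside 47.8% and 59.4% of the UMIs of all genes.

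The DMSO level of the mature monocyte-like class came largely from a minority of its cells. At a finer clustering its cells fell mainly into 2 groups. The first, from a fine cluster led by H2-Eb1 and H2-Aa that kept the mature monocyte-like name, took 374 DMSO and 517 DAB cells of the class, with 28 and 2437 Cox6a2 UMIs, or 3.66 and 154 CPM, a log2 ratio of 5.40 (4.87 to 5.99). The second, from a fine cluster led by H2-Q10, Myl10, Thy1 and Prtn3 that carried markers of granulocyte progenitors, took 209 and 273 cells of the class, with 194 and 3455 Cox6a2 UMIs, or 43.7 and 387 CPM, a log2 ratio of 3.15 (2.94 to 3.37). Cox6a2 and Cox4i2 were themselves among the leading genes of this second group, which was singled out after its values were seen. Cox6a2 was higher in DAB in both groups, and its level in either library was higher in the second.

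In the mature PMN-like, intermediate and chemokine-high granulocyte-like classes Cox6a2 was lower in level than in the monocyte-like ones in the DAB library. Granulocyte progenitor-like cells, given below, stood above the immature monocyte-like cells there. Mature PMN-like cells, the late neutrophils, had 6 and 116 UMIs, or 1.42 and 18.8 CPM, a log2 ratio of 3.73 (2.56 to 5.21). Intermediate granulocyte-like cells, which make the secondary granule proteins Ltf and Ngp, had 2 and 103 UMIs, or 0.268 and 20.3 CPM, a log2 ratio of 6.24 (4.35 to 9.30). Chemokine-high granulocyte-like cells, marked by Ccl3 and Ccl4, had 30 and 369 UMIs, or 13.6 and 43.5 CPM, and the smallest log2 ratio of the 6 classes at 1.68 (1.14 to 2.26). All markers on the list of this class are chemokine genes, so the granulocyte part of its name rests on S100a8 or Csf3r alone. Gpnmb was among the leading genes of both its clusters, F and P. Within this class, cluster F had 22 and 117 UMIs, or 18.4 and 29.0 CPM, a log2 ratio of 0.65 (-0.01 to 1.38). The interval of F held 0, while the intervals of the other compared classes and of cluster G did not. Cluster P, the rest of the class, had 8 and 252 UMIs in 127 DMSO and 449 DAB cells. Cox6a2 made up 2.19% and 12.3% of its pair in P, and 4.50% and 5.96% in F. The libraries drew on the clusters of a class unequally. Of the intermediate granulocyte-like cells, cluster G held 883 of 950 in DMSO and 214 of 429 in DAB, and within G alone the levels were 0.286 and 24.1. Macrophage-like cells, with C1q genes, had 3 and 183 UMIs, or 1.32 and 58.3 CPM, a log2 ratio of 5.47 (3.90 to 7.76). Their median depth was 8618 UMIs in DMSO and 4198.5 in DAB. This class held 372 DAB cells here and between 74 and 195 in the alternative clusterings, which limits its values for every gene.

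Classes with fewer cells are given as levels. Granulocyte progenitor-like cells, with the primary granule genes Elane and Mpo, had 4 Cox6a2 UMIs in 132 DMSO cells and 361 in 87 DAB cells, or 3.23 and 204 CPM. B cell-like cells had 16.2 (8.38 to 28.3) in DMSO and 63.2 (49.4 to 79.6) in DAB, from 12 and 72 UMIs. Activated dendritic cell-like cells had 0.463 and 20.2, and basophil or mast cell-like cells 7.05 and 66.0. The 20 and 22 T or NK cell-like cells held 0 and 7 UMIs. No class had a lower level in DAB than in DMSO.

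The order of the classes was much clearer in DAB than in DMSO. In DAB the level fell from mature monocyte-like (238) through granulocyte progenitor-like (204) and immature monocyte-like cells (135), each apart from the next beyond its interval. This order depends on the clustering, since the mature monocyte-like level was 151 at the finer clustering, where the Cox6a2-rich cells left the class, and 143 without doublet removal. The basophil or mast cell-like, T or NK cell-like, B cell-like and macrophage-like classes followed at 58.3 to 66.0 and overlapped. Chemokine-high granulocyte-like cells (43.5) were apart from the macrophage-like cells above them but not from the T or NK cell-like cells, whose 7 UMIs gave 63.8 (25.6 to 131). The lowest 3, the intermediate granulocyte-like, activated dendritic cell-like and mature PMN-like cells at 18.8 to 20.3, could not be told apart. In DMSO the order of the classes with a Cox6a2 UMI ran from 18.1 in mature monocyte-like cells to 0.268 in intermediate granulocyte-like cells. Each neighbour overlapped with the next, and T or NK cell-like cells held 0 UMIs. Classes further apart in the order could differ, as the mature (18.1) and immature monocyte-like cells (9.69) did beyond their intervals.

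**Figure D3:**
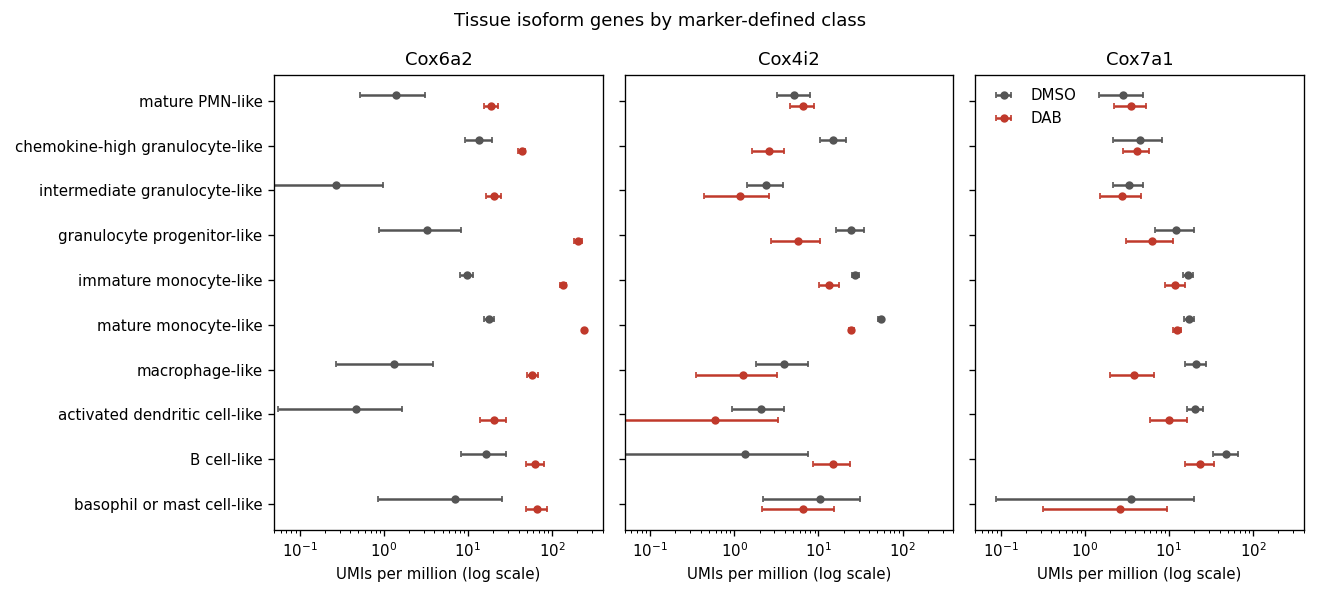
Level of Cox6a2, Cox4i2 and Cox7a1 in 10 marker-defined classes, in CPM on a log axis, for DMSO (grey) and DAB (red), with exact Poisson 95% intervals that run off the left edge where the lower bound is below the axis; T or NK cell-like cells are not drawn. Cox6a2 is higher in DAB in every class drawn, up to 238 in mature monocyte-like cells. Cox4i2 and Cox7a1 are mostly lower or overlap, but Cox4i2 is higher in DAB in B cell-like cells (1 and 17 UMIs).

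Within its pair, Cox6a2 reached a share of 29.5% in mature monocyte-like DAB cells, against 3.59% in DMSO, and 22.7% against 2.01% in immature monocyte-like cells. In granulocyte progenitor-like cells it was 30.9% against 0.855%. In the mature PMN-like class it was 3.57% against 0.345%, in the intermediate granulocyte-like class 6.15% against 0.136%, in the chemokine-high class 9.19% against 3.51%, and in macrophage-like cells 9.08% against 0.200%. B cell-like cells had the highest DMSO share of the classes at 11.4%, and 22.8% in DAB, on a low Cox6a1 level of 126 and 214 CPM. In no class of either library did Cox6a2 supply most of the pair. The mature monocyte-like share includes the second, Cox6a2-rich group of that class described above.

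**Figure D4:**
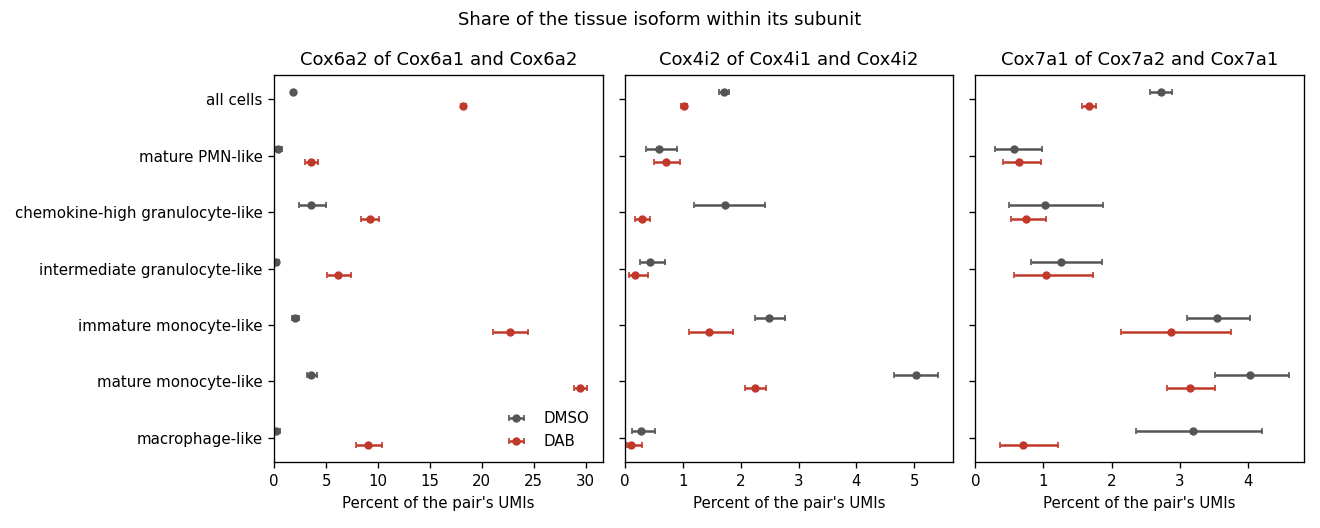
Percent of a pair's UMIs that came from the tissue isoform, for all cells and the 6 compared classes, in DMSO (grey) and DAB (red), with exact binomial 95% intervals; each panel has its own axis. Over all cells the Cox6a2 share is 1.82% in DMSO and 18.2% in DAB, and the shares of Cox4i2 (1.71% and 1.02%) and Cox7a1 (2.72% and 1.66%) are lower in DAB.

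Cells with a Cox6a2 UMI were also more common. Each cell was thinned to 1500 UMIs, and 430 DMSO and 290 DAB cells below that depth were left out. Of the rest, 61 of 8602 DMSO cells (0.709%) and 763 of 10186 DAB cells (7.49%) had at least 1. Without thinning the shares were 4.17% and 29.9%, with up to 12 UMIs in a DMSO cell and 63 in a DAB cell. The thinned share was 2.53% and 24.6% in mature monocyte-like cells, 1.13% and 16.6% in immature monocyte-like cells, and 0.196% and 0.920% in mature PMN-like cells. In intermediate granulocyte-like cells it was 0 of 933 cells in DMSO, which allows a share of up to 0.395%, and 2.10% in DAB. Median depths of these classes before thinning were 19938 and 30426 UMIs for mature monocyte-like cells and 7033 and 10536 for intermediate granulocyte-like cells. The thinned share of the mature monocyte-like class also includes its second, Cox6a2-rich group.

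The B cell-like class, which was meant to give the level of free RNA in the droplets, could not serve as a floor. Its thinned share was 3.08% (0.845 to 7.69) in DMSO and 3.91% in DAB, and its DMSO level of 16.2 CPM was above the 7.73 of all cells. The lowest levels in DAB, in the mature PMN-like, intermediate granulocyte-like and activated dendritic cell-like classes, were 17.2%, 18.6% and 18.5% of the level over all DAB cells. In DMSO the same classes stood at 18.3%, 3.47% and 5.99%. Markers of other classes set the scale. In the DAB intermediate granulocyte-like cells the 7 mature monocyte markers stood at a median of 1.07% of their all-cell level, with H2-DMa highest at 29.0%, and the 7 macrophage markers at 0%, with Adgre1 highest at 37.4%. In the DAB mature PMN-like cells these medians were 12.2%, with Cd74 highest at 61.7%, and 22.7%, with Trem2 highest at 132%. The 5 granulocyte progenitor markers had a median of 21.1% there, the B cell markers 5.12% and the basophil or mast cell markers 7.51%. Macrophage and progenitor markers thus stood above the 17.2% of Cox6a2, and monocyte, B cell and basophil or mast cell markers below it. In the DAB intermediate granulocyte-like cells the progenitor markers had a median of 111%, the B cell markers 0.69% and the basophil or mast cell markers 2.51%. The part of free RNA in the low DAB levels of these 3 classes was not tested.

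Cox6a2 was unevenly spread over the cells of both libraries. With so different a level, the shares at a fixed number of UMIs cannot be compared between them. In DMSO the 77 cells with at least 3 Cox6a2 UMIs (0.853% of cells) held 48.5% of its UMIs, and in DAB the 1674 such cells (16.0%) held 87.0%. These were deep cells, with a median of 22573 and 27591 UMIs. Of them 31 and 474 lay in the mature monocyte-like cluster. Of the plasmacytoid dendritic cell markers looked at in them, Siglech had 0 and 3 UMIs, Klk1 0 and 2 and Ccr9 1 and 22, while Bst2, which many other cells also express, had 479 and 8227 there and 16125 and 19589 over all cells.

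Cox4i2 was concentrated in the same cluster as Cox6a2 but ran the other way. Mature monocyte-like cells held 43.9% of its UMIs in DMSO and 44.7% in DAB, beside 13.2% and 17.6% of the UMIs of all genes. This class includes the second group described above, from a fine cluster with granulocyte progenitor markers and Cox4i2 among its leading genes. The Cox4i2 UMIs of the class were not split between its groups. The Cox4i2 level in the whole class was 54.9 and 24.7 CPM, a log2 ratio of -1.15 (-1.31 to -0.99). In immature monocyte-like cells it was 27.5 and 13.5, a log2 ratio of -1.02. In chemokine-high granulocyte-like cells it was 14.98 and 2.59, a log2 ratio of -2.53 (-3.38 to -1.71). It was lower past the fold in these 3 of the 5 classes with enough UMIs, whose shares of lower genes are given above. Mature PMN-like cells had 5.19 and 6.48, a log2 ratio of 0.32 whose interval held 0. Its share of the subunit 4 pair in mature monocyte-like cells was 5.02% and 2.25%. B cell-like cells, too few to be compared, ran the other way, with 1 and 17 Cox4i2 UMIs in DMSO and DAB, or 0.194% and 1.67% of the pair. Unnamed clusters held 24.0% of the Cox4i2 UMIs in DMSO and 43.5% in DAB. The pair share was near even in clusters D (0.713% and 0.732%) and H (0.665% and 0.666%). It was lower in DAB, with intervals apart, in clusters L (0.862% and 0.346%), Q and W. In the other unnamed clusters with cells of both libraries the intervals overlapped.

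Cox7a1 had a different distribution. Its highest level was in B cell-like cells, 47.3 CPM in DMSO and 23.7 in DAB, where it made up 16.1% and 8.36% of the subunit 7a pair. Macrophage-like cells had 21.0 and 3.82 CPM from 48 and 12 UMIs, a log2 ratio of -2.46 (-3.51 to -1.53), and immature monocyte-like cells 16.8 and 11.9, a ratio of -0.50 (-0.97 to -0.06). These were the 2 of 6 classes in which it was lower past the fold. Mature monocyte-like cells had 17.3 and 12.4, just inside the limit with a log2 ratio of -0.48. Activated dendritic cell-like cells had 20.6 and 10.1. The mature PMN-like, intermediate and chemokine-high granulocyte-like classes had between 2.75 and 4.54 in either library, and the intervals of their ratios held 0.

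Among the common isoforms, Cox4i1, Cox7a2, Cox8a and Cox6b1 were past the fold in 0 of 6 classes, with log2 ratios between -0.41 and 0.32. Cox6a1 was higher in 1 class, the intermediate granulocyte-like cells, at 198 and 309 CPM and a log2 ratio of 0.64 (0.54 to 0.75). There both isoforms of subunit 6a were higher. In macrophage-like cells, a class whose DAB cells depended on the clustering, the 5 common isoforms were lower on balance. Their median log2 ratio was -0.36 beside 0.10 over all genes tested there, and their summed level was 5394 and 4297 CPM. Cox7a2l was lower in 2 classes, with 316 and 190 CPM in mature PMN-like cells, a log2 ratio of -0.74, and 280 and 187 in chemokine-high granulocyte-like cells, a ratio of -0.58. In the other 4 classes its log2 ratio lay between -0.36 and -0.14.

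**Figure D5:**
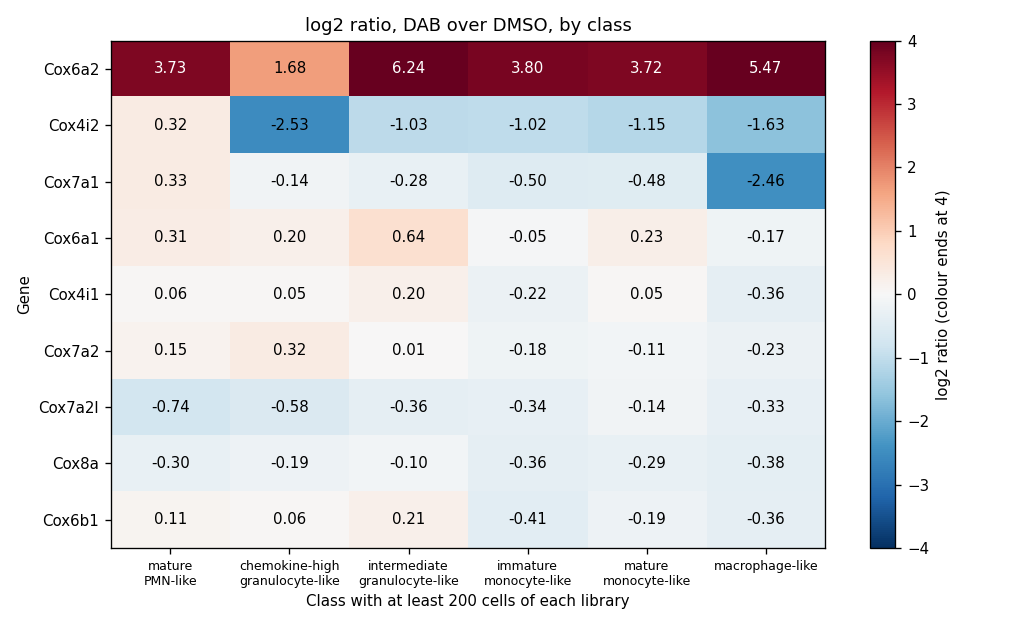
Log2 ratio of DAB over DMSO for the 9 genes (rows) in the 6 compared classes (columns), printed in each cell and coloured from blue (lower in DAB) to red (higher), with the colour ending at 4. The Cox6a2 row runs from 1.68 to 6.24, the Cox4i2 and Cox7a1 rows are mostly negative, and the common isoforms lie between -0.41 and 0.64, the latter for Cox6a1 in intermediate granulocyte-like cells.

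Among the other subunits of complex IV, 11 of 14 genes had enough UMIs, with 1 higher and 2 lower past the fold and a median log2 ratio of -0.05. These counts are near the 13.9% and 16.9% of all tested genes. In macrophage-like cells, a class whose DAB cells depended on the clustering, their median was -0.37, beside 0.10 over all genes tested there. In the other compared classes it lay between -0.17 and 0.10. The mitochondrially encoded mt-Co3 had 1516 and 2277 CPM, a ratio of 0.59, while its partners mt-Co1 and mt-Co2 in the catalytic core had -0.21 and 0.10. Cox6b2, the testis isoform of subunit 6b, had 2.44 and 0.819 CPM, a ratio of -1.57. Ndufa4l2, an alternative form of the subunit encoded by Ndufa4, had 8.44 and 5.50, a ratio of -0.62, beside 116 and 158 for Ndufa4 itself. The muscle isoform gene Cox8b had 0 and 1 UMIs, and Cox7b2 and Cox8c had none in either library. Over all cells, Cox6a2 in DAB was the 1 tissue isoform gene of complex IV counted here with a level above 20 CPM. In DMSO its 7.73 CPM was below the 16.5 of Cox4i2 and the 11.5 of Cox7a1. Within some classes given above, Cox4i2 and Cox7a1 also passed 20 CPM.

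Among 26 assembly factors, which insert copper and heme and help build the complex, 25 had enough UMIs. Of these 4 were higher and 2 lower past the fold, where 13.9% and 16.9% of all tested genes were, and the median log2 ratio was 0.02. The higher ones were Sco2, a copper chaperone (8.65 and 14.0 CPM, a ratio of 0.70), Cox10, needed to make heme A (0.67), Coa7 (0.64) and Lrpprc, which stabilises mitochondrial messenger RNA (0.53). The lower ones were Cmc1 (133 and 77.0 CPM, a ratio of -0.79) and Surf1 (-0.62). The most abundant of the list were Higd1a in DMSO (329 and 332) and Cox17, a copper chaperone, in DAB (256 and 349.5). In intermediate granulocyte-like cells, 11 of 24 assembly factors were higher and 2 lower, beside 23.2% and 15.5% of all genes tested there. Their median log2 ratio was 0.45, beside 0.09 over all genes. This class was picked out after its values were seen. In the other compared classes the median lay between 0.01 and 0.22.

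A list of 14 regulators linked to isoform or respiratory genes had 13 with enough UMIs, of which 2 were higher and 2 lower past the fold, with a median log2 ratio of -0.04. These counts too are near the 13.9% and 16.9% of all tested genes. Mef2c, a factor known from muscle genes, had 19.1 and 29.4 CPM, a ratio of 0.62, and Cxxc5 a ratio of 0.55. Usf2 had a ratio of -0.60. Ppargc1b, a coactivator of mitochondrial biogenesis, had 3.64 and 0.982, a ratio of -1.89, and its relative Ppargc1a had 2 and 1 UMIs. Rbpj, the most abundant of the list, had 357 and 348.

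Of the other muscle isoforms of mitochondrial proteins in the list, Slc25a4 and Cpt1b had enough UMIs, and neither was past the fold. Slc25a4, the heart and muscle form of the ADP/ATP carrier, had 54.3 and 41.1 CPM, a log2 ratio of -0.40, beside 0.10 for the common form Slc25a5. Cpt1b, the muscle form of carnitine palmitoyltransferase, had 0.957 and 1.09, a log2 ratio of 0.19 (-0.19 to 0.59), beside -0.60 for the common form Cpt1a. Ckmt2, the muscle mitochondrial creatine kinase, had 0 and 4 UMIs. The list of 8 genes holds muscle and common forms, and 5 had enough UMIs. Of these 0 were higher and 1, the common form Cpt1a, was lower past the fold, beside 13.9% and 16.9% of all tested genes. The median log2 ratio of -0.26 was that of the common isoform Cox8a.

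Markers of muscle cells were few in UMIs but not all absent. Of 12 striated muscle markers, Mb, Myh4 and Des had 0 UMIs in both libraries, and 7 had enough UMIs. Of these 7, 3 were higher past the fold and 0 lower, a larger share than the 13.9% of all tested genes that were higher, and the median log2 ratio was -0.13. These were Ckm (184 and 598 UMIs, a log2 ratio of 1.09), Mylpf (140 and 332, 0.64) and Tnni2 (1215 and 2648, 0.52). The summed level of the list was 19.9 and 27.8 CPM, of which Tnni2 alone made 13.1 and 18.7. Of 10 pericyte, smooth muscle and fibroblast markers, 2 of the 6 with enough UMIs were higher and 1 lower, beside 13.9% and 16.9% of all tested genes. Pdgfrb had 39 and 145 UMIs, Kcnj8 18 and 68, and Col1a1 45 and 34, and the summed level was 19.6 and 26.8 CPM, of which Acta2 made 17.9 and 24.5. The part of muscle or stromal cells in the Cox6a2 values was not tested beyond these levels.

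The protein-coding genes around Cox6a2 that had enough UMIs did not share its ratio, while 2 sparse non-coding transcripts downstream of it had high ratios. The integrin genes Itgam and Itgax upstream of Itgad had log2 ratios of 0.35 and -0.82. Itgad itself, whose span holds Cox6a2 on the opposite strand, had 25 and 59 UMIs, a ratio of 0.63. Armc5 had 355 and 937 UMIs, a ratio of 0.79, and the ratios of 9130023H24Rik and Tgfb1i1 were 0.48 and 0.24. The nearest transcript downstream on the same strand, 4931431B13Rik at chr7:128192050-128203328, had 1 and 22 UMIs, a ratio of 3.85 (1.22 to 9.22), and Gm39091 beyond it had 3 and 28, a ratio of 2.62 (0.92 to 4.98). The sources used here do not say whether strand was used in counting, so reads of Cox6a2 and Itgad where they overlap may not have been told apart.

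Promoters of 3 genes are shown to set a common isoform beside a tissue isoform. They are 300 bases from RefSeq (GRCm38.p6), 250 before the start of the gene and 50 after, with motif matches on either strand in capitals. The ETS family motif was searched as CCGGAAG. The NRF1 motif was searched as GCGCATGC. The TATA box was searched as TATAAA. The GC box was searched as GGGCGG.
Cox6a1 promoter (chr5:115348909-115349208, minus strand): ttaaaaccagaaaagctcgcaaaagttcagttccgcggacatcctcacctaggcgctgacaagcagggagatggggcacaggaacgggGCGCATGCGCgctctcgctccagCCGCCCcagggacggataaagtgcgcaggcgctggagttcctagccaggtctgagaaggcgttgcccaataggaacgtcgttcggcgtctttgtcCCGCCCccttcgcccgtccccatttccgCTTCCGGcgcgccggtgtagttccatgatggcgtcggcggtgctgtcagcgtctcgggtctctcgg
Cox7a2 promoter (chr9:79759804-79760103, minus strand): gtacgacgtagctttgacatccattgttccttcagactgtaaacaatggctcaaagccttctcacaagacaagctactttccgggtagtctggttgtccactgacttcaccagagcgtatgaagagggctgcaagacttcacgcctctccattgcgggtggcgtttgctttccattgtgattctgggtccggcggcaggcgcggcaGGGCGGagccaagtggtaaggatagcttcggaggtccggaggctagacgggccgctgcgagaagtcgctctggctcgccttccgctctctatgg
Cox7a1 promoter (chr7:30183921-30184220, plus strand): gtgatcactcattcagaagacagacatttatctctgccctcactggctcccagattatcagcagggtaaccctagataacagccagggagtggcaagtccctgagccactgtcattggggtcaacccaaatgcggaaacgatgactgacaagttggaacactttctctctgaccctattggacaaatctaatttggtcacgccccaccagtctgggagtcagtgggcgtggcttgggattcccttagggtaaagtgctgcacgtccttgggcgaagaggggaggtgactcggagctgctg
The Cox6a1 window held 1 ETS, 2 overlapping NRF1 and 2 GC box matches, with a GC content of 63% and 32 CpG sites. The Cox7a2 window held 1 GC box match and 20 CpG sites at 56.7% GC, and the Cox7a1 window none of the 4 motifs and 7 CpG sites at 53%. Over 32851 promoters of this length the median was 7 CpG sites and 52.7% GC, and 8.86% held the ETS motif, 2.71% the NRF1 motif, 13.6% a TATA box and 35.7% a GC box. A promoter entry was also found for Cox6b1, Cox7a2l and Cox8a, with 17 to 19 CpG sites, and not for Cox6a2, Cox4i1 and Cox4i2.

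Across 34 groups (the 17 clusters in which both libraries had at least 100 cells, taken by library), the genes whose level ran most like that of Cox6a2 were Psph, Mthfd2, Ghitm, Eif3c and Nars, with Pearson r of log2(CPM + 10) of 0.92, 0.90, 0.88, 0.87 and 0.87 among 5891 genes. Psph makes serine, Mthfd2 is a mitochondrial folate enzyme and Nars charges the transfer RNA for asparagine. They were higher in DAB themselves, Psph at 8.75 and 43.4 CPM and Mthfd2 at 60.8 and 178. Within the DMSO clusters alone the r of these genes was 0.37, 0.66, 0.79, 0.61 and 0.39, and within the DAB clusters 0.87, 0.86, 0.82, 0.77 and 0.80. Against the other 8 isoform genes the r of Cox6a2 lay between -0.11 and 0.28. Cox7a1 ran most like AW112010 (0.91) and Irf8 (0.86), and Cox4i2 like Hes6 (0.76) and Clec10a (0.74). The groups share 2 libraries and their depth, so these are descriptions across clusters.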

How the data were processed

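The authors counted UMIs per gene and barcode of a 10x Genomics 5′ v2 library for each condition, and the deposited values are these raw counts with no normalization. The submitters' processing notes name Cell Ranger 7.0.0, R 4.1.2, Seurat 4.3.0 and the mm10 genome. The DMSO and DAB files held 9855 and 11631 barcodes with 106792967 and 165506902 UMIs.

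Barcodes with over 10% mitochondrial UMIs were removed (55 and 89). No barcode was over 4 median absolute deviations from the median in depth or detected genes. The highest doublet scores against simulated doublets were removed at 0.8% per 1000 cells (768 and 1066), a step that missed most doublets planted in a test. Pearson residuals (theta 100) of 3000 variable genes, without complex IV genes and with S, G2M and mitochondrial scores regressed out, were reduced to 40 components, aligned by mutual nearest neighbours (k = 20) and clustered by Leiden at resolution 0.9 into 26 clusters (seed 1). A cluster was named from 15 marker lists where at least 3 markers, and most of the detected markers of the list, were raised. More of its 10 leading genes also had to belong to that list than to any other. The granulocyte-like names other than progenitor also needed S100a8 or Csf3r above the level of the other cells. By these rules 12 clusters stayed unnamed. The naming rule, the members and the gene lists were set with earlier results of these data known. The named genes are the members, the highest, lowest and most abundant genes of each list, the 5 genes most like Cox6a2 in pattern and its neighbours on the chromosome. List genes past the fold beyond these, and genes set beside a listed one, were named after their values were seen.

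Summed UMIs were scaled to the total of the same cells and compared without a test, with exact conditional binomial intervals at 95%. The ratio step was tested on simulated data. Coordinates come from the GENCODE annotation of GRCm38. Alternatives were no cell filter, no doublet removal, median-of-ratios scaling, class-standardized values, a mean in which each cell weighed the same, a minimum of 200 UMIs or none, thinning to 3000 UMIs or none, resolutions 0.5 and 1.5, no alignment, and complex IV genes kept in clustering. Python 3.11.15 was used with numpy 2.4.6, scipy 1.17.1, pandas 2.3.3, scikit-learn 1.9.0, igraph 0.11.9, leidenalg 0.10.2, matplotlib 3.10.9 and Biopython 1.88. Other experiments of the study were not analysed here.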

Additional observations from a re-analysis of the deposited data

How the results depend on the processing

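Of 102 alternative values, 70 counted as unmoved and 32 as moved, and none of the values past the fold changed direction. The limit was the counting error, except for the counts of genes past the fold, which have no interval. Over all cells, the log2 ratio of Cox6a2 lay between 3.72 and 3.85, that of Cox4i2 between -0.86 and -0.71 and that of Cox7a1 between -0.66 and -0.63. Class-standardized values of the 8 genes other than Cox6a2 were added after the data were seen. The median of the common isoforms was 0.010 with median-of-ratios scaling and 0.043 as a mean over cells, against -0.01, and Cox6b1 was 0.02 as a mean over cells, against -0.14. With a minimum of 200 UMIs, 1689 genes were higher past the fold in place of 2265, and 1790 were lower in place of 2760. The share of cells with a Cox6a2 UMI was 1.41% and 15.2% at 3000 UMIs and 4.17% and 29.9% without thinning. In mature monocyte-like cells the log2 ratio of Cox6a2 was 3.72, and 5.70 at resolution 1.5, 5.62 without doublet removal and 7.01 without alignment, where the class held 53 DMSO cells. In immature monocyte-like cells it was 3.80, and 3.35 at resolution 0.5, 3.23 without alignment (48 DAB cells), 3.27 with complex IV genes kept and 3.51 without doublet removal. At resolution 1.5 the Cox6a2-rich cells had left the mature class, and for the other settings the cause was not tested. Subtracting the B cell-like level gave no value, as it exceeded the DMSO level over all cells. No paired analysis was possible because each group had 1 library, and for the same reason no replicate could be left out. Depth limits the DMSO values of Cox6a2 in classes other than the monocyte-like ones, which rest on 0 to 30 UMIs.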

Other observations

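In clusters that no marker list named, Cox6a2 was higher in DAB as well. Cluster H, led by Mmp12, Ccl2 and Spp1, had 19.0 and 130 CPM in DMSO and DAB. Cluster L, led by Crip1 and Tspan18, had 12.3 and 142, and cluster D, led by Il2ra and Cd200r3, had 6.16 and 89.9. Cluster K had 5.33 and 107, and cluster A, led by Car4 and Ly6i, had 3.83 and 74.8. Cluster B, led by S100a9, S100a8 and Ly6g, had 0.338 and 32.9, and cluster Q 1.27 and 40.2. Cluster N, led by stefin A genes, held 58 DMSO and 573 DAB cells, and its DAB cells had 116 CPM.

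Genes of the amino acid response also ran with Cox6a2 across the 34 groups, with r of 0.83 for Asns, 0.81 for Chac1, 0.83 for Trib3 and 0.84 for Psat1. These 4 genes were chosen after their values were seen, and all 4 were themselves higher in DAB over all cells. Their log2 ratios were 2.36, 2.81, 2.64 and 1.785 in the same order. The 34 groups mix both libraries, and no r within a library is given for these 4 genes.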
